A study of Mus musculus with 12 samples.

Results

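The replication-dependent histone genes were examined in RNA-Seq of the hippocampus of 12 adult male C57BL/6 mice. Members were the protein-coding genes of the GENCODE vM21 mouse annotation whose symbol starts with Hist1h, Hist2h, Hist3h or Hist4. In all, 67 of the 35580 genes with deposited values met this rule, and low genes were kept. They comprise 6 genes of the linker histone H1 and 18 of H2A, 18 of H2B, 12 of H3 and 13 of H4, which form the core of the nucleosome. Each of the 4 groups held 3 mice at postnatal day 70, with 1 library per mouse. Control mice had a water-drinking dam and were left with her. Ethanol mice came from dams given a free choice between water and 10% ethanol, before mating and through gestation, and per the study's methods until postnatal day 10. Stress mice had water-drinking dams, and each pup spent 3 h a day alone between postnatal days 2 and 14. Ethanol + stress mice had both exposures. No allele or transgene was used. The paper states that pups for separation were picked at random within each litter, so littermates may lie in different groups. Mice drawn from one litter, within or across groups, cannot be recognised from the labels, so p-values measure the spread between these mice. Alcohol intake was voluntary and blood alcohol was not measured.

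Replication-dependent histones package newly made DNA, and their genes are known to be transcribed mainly in S phase. Their mRNAs are the main animal mRNAs that do not usually end in a poly(A) tail. They end instead shortly after a conserved stem-loop in the 3′ untranslated region, which is bound by SLBP and needed for processing, translation and decay. Some of these genes can also give longer, polyadenylated mRNAs in cells that no longer divide. Most cells of the adult hippocampus are postmitotic, with neural stem cells of the dentate gyrus as a dividing minority. The libraries were made from total RNA depleted of ribosomal RNA and not selected for poly(A), so mRNAs of both kinds could be sequenced.

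The stem-loop is shown first because it is the feature that sets these mRNAs apart. A stem-loop of 16 bases was found after the stop codon in 46 of the 67 members, at 21 to 58 bases past the stop codon with a median of 31. Of the other 21 members, 11 are annotated as coding sequence only, so that the region was not there to be searched. The same search found a stem-loop in 83 of 21951 protein-coding genes, or 0.378%, of which 46 were these members and 37 other genes. Its letters differed between histone types. All 34 members of H1, H2A, H2B and H3 with a stem-loop began it with GGCTCT, whereas the 12 H4 members began it with GGCCCT in 10 genes and GGTCCT in 2. The most common form, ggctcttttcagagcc, was carried by 26 members. The sequences below have the stem-loop in capitals with 5 bases on each side, 5′ to 3′ on the gene's strand, and the coordinates are those of the stem-loop in GRCm38. They are the most abundant member of H1, members of each core type, and the H4 genes on which the comparisons turn.
Hist1h1c (chr13:23739512-23739527, + strand): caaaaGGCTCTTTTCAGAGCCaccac
Hist1h2ab (chr13:23751572-23751587, + strand): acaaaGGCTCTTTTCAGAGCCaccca
Hist1h2bg (chr13:23571843-23571858, + strand): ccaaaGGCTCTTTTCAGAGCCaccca
Hist1h3e (chr13:23561903-23561918, - strand): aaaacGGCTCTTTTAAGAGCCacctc
Hist1h3g (chr13:23535889-23535904, + strand): ttaaaGGCTCTTCTTAGAGCCaccca
Hist1h4h (chr13:23531458-23531473, + strand): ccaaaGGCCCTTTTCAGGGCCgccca
Hist1h4i (chr13:22040966-22040981, - strand): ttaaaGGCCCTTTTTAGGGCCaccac
Hist1h4j (chr13:21735437-21735452, + strand): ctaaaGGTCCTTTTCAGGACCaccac
Hist1h3g differs from the other H3 gene shown in its loop, and both H4 forms shown pair a changed left arm with the matching right arm. Annotation past the stem-loop was uneven. Transcripts ended 3 to 4884 bases after it, with a median of 91, so the annotated length of a member, and hence its TPM, depended on whether the short or a long mRNA was annotated.

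The promoters are shown because the share of members that held certain letters there differed between histone types. Sequences of 250 bases before to 50 bases after the start were taken from RefSeq on GRCm38.p6. Of the 67 members, 66 were matched by symbol or synonym and 61 had at least 1 entry, which gave 62 promoters. The letters CCAAT, on either strand, were in all 6 H1, 17 H2A, 17 H2B and 10 H3 promoters, but in 3 of 12 H4 promoters. Over all 32851 promoters in the table the share was 37.4%. TATAAA was found in 56.5% of member promoters against 13.6% of all promoters. The octamer ATTTGCAT, known from histone H2B promoters, was in 7 of 17 H2A and 7 of 17 H2B promoters, in 0 of H1, H3 and H4, and in 1.74% of all promoters. The promoters of 4 members follow, with these motifs in capitals wherever they or their reverse complements occurred.
Hist1h2ab (chr13:23750838-23751137, + strand): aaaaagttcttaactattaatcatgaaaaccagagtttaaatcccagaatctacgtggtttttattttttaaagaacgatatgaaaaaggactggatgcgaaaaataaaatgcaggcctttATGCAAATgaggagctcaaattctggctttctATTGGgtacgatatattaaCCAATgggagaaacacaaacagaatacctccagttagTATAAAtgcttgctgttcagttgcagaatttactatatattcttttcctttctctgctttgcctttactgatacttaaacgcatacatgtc
Hist1h4h (chr13:23530794-23531093, + strand): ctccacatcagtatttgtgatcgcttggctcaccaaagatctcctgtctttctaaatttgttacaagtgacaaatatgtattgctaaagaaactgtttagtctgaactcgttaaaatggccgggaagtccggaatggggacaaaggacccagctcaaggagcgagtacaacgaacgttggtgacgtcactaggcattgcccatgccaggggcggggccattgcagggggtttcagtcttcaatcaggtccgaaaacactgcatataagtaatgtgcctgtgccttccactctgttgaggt
Hist1h4i (chr13:22041313-22041612, - strand): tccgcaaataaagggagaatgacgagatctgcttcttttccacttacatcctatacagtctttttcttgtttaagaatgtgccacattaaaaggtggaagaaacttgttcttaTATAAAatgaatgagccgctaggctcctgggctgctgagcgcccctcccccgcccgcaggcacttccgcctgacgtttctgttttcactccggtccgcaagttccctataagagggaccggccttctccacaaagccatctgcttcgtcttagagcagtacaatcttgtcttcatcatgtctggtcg
Hist1h4j (chr13:21734784-21735083, + strand): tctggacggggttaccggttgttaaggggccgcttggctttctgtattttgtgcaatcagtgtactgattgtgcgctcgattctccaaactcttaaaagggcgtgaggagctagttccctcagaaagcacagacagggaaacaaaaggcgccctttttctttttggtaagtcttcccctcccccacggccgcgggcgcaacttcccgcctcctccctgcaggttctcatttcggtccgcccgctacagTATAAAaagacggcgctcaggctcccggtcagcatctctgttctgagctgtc
Hist1h2ab held all 3 motifs. Hist1h4i and Hist1h4j held TATAAA alone, and Hist1h4h, the most abundant member, held none of the 3. A match in these windows is a description of letters and does not show binding.

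The genes lie in 4 places on GRCm38. The large cluster on chromosome 13, between 21715763 and 23934851, holds 54 members. Another 10 lie on chromosome 3 between 96219865 and 96270132, 2 on chromosome 11 and Hist4h4 alone on chromosome 6. In 13 cases neighbouring members were transcribed away from each other from starts 176 to 660 bases apart, 12 of them an H2A with an H2B gene. Such neighbours did not have like levels. Among the 11 such pairs with both genes tested, the higher member was 1.50 to 24.6 times the lower in mean TPM, with a median of 5.38. Hist1h2bc averaged 104 TPM beside 4.24 TPM for Hist1h2ac, its divergent neighbour.

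How far reads can tell these copies apart limits every single-gene value. Each transcript was split into words of 31 bases, the length with which kallisto matches reads. In 41 members fewer than 50% of the words occurred in no other gene, and 5 members had no word of their own. These 5 were Hist2h2aa1, Hist2h2aa2, Hist2h2bb, Hist2h3b and Hist2h3c1. The testis histone H1 gene Hist1h1t was the highest at 100%. Hist1h2be overlaps Hist1h1e on the same strand through a long transcript. Members that shared over 50% of the words of the shorter copy were therefore also added up. This left 18 genes alone and put 49 genes into 7 groups, for 25 features in all.

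Adult hippocampus held measurable RNA of nearly all members. Of the 67, 65 had a value above 0 in at least 1 library and 64 passed the filter of 0.1 TPM in at least 6 libraries. Libraries were estimated at 12002400 to 14925900 read pairs, of which the members together took 0.0806 to 0.127%, or 10300 to 17905 read pairs. In mean TPM, 11 members reached 100, 42 reached 10 and 25 were below 10. The 5 leading members held 41.7% of the summed level and the 10 leading members 64.4%. A count of 3 read pairs was worth 1.60 to 2.01 TPM for a transcript of 400 bases, and 5 members averaged no more than 3 read pairs. These read pairs were estimated from the steps between low values and cover counting error only.

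**Figure D1:**
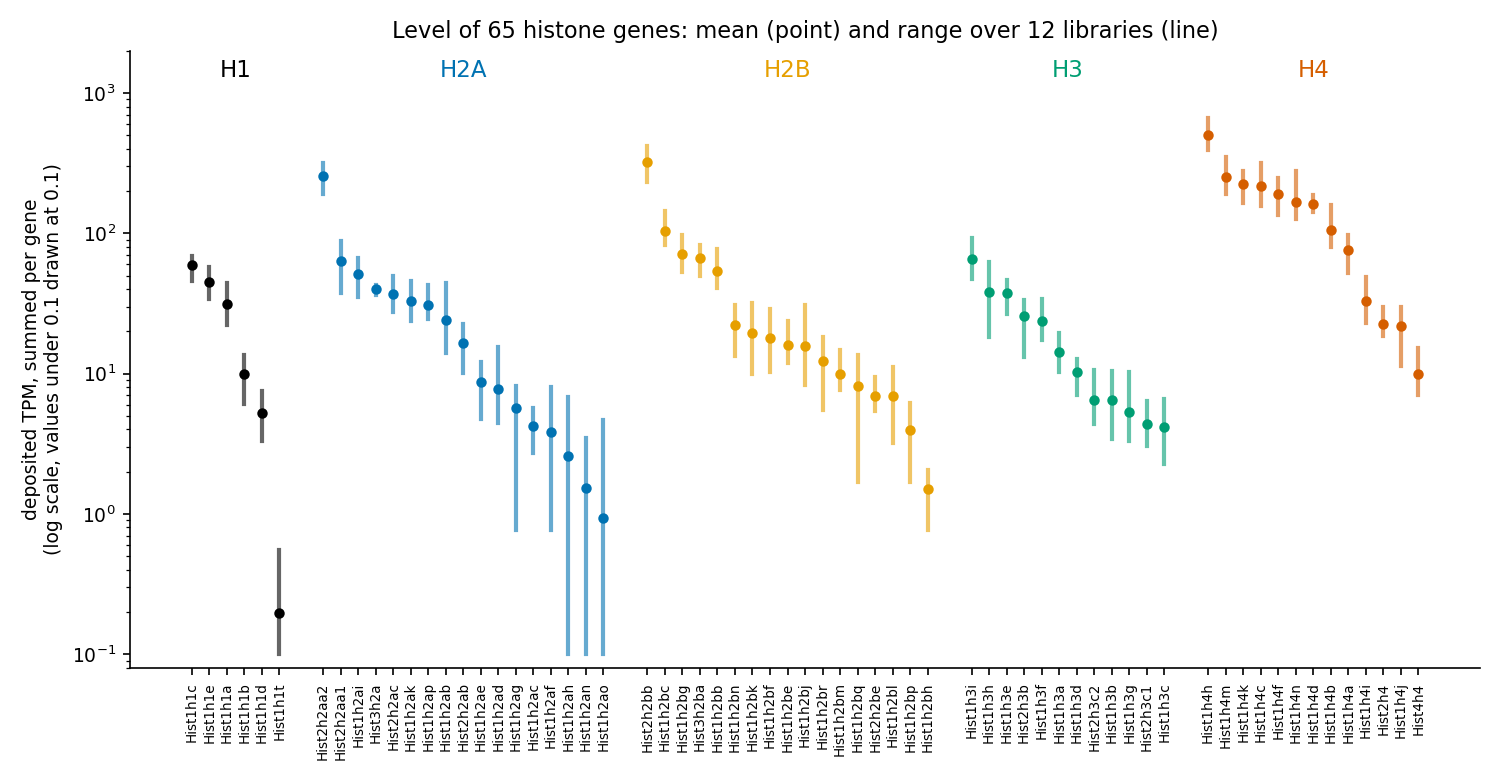
Deposited TPM of the 65 members with any value, on a log axis, grouped by histone type and sorted by mean. Points are means and lines the range over the 12 libraries; Hist1h4h is the highest member, with values from 395 to 668 TPM, and the lowest members reach 0 in some libraries.

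H4 was the most abundant type and made up 51.3 to 54.8% of the summed TPM in every library. Hist1h4h ranged from 395 TPM in ethanol replicate 3 to 668 TPM in ethanol + stress replicate 2, around a mean of 498 TPM. Hist1h4m, Hist1h4k and Hist1h4c followed with means of 252, 226 and 219 TPM. Hist1h4k is annotated as coding sequence only, 312 bases long, and 11 such members held 20.6% of the summed level. TPM of a transcript that short rests on few bases in which a fragment can lie.

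H2B and H2A came next, with 18.9 to 22.8% and 14.8 to 17.0% of the sum. Hist2h2bb led H2B with a mean of 321 TPM and a range of 232 to 416 TPM. All of its words also occur in the predicted gene Gm20628, so this level is that of a sequence and not of one locus. Hist1h2bc, Hist1h2bg and Hist3h2ba averaged 104, 70.7 and 66.8 TPM. Among H2A genes, Hist2h2aa2 averaged 255 TPM and its copy Hist2h2aa1, which holds all of its words, 63.6 TPM. Hist1h2ai averaged 51.0 TPM. Hist3h2a, with 67.9% unique words, averaged 39.8 TPM and had the narrowest range of the H2A genes named here, 36.4 to 42.8 TPM.

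H3 and H1 were the smallest types, at 5.90 to 7.35% and 3.55 to 4.92% of the sum. Hist1h3i, Hist1h3h, Hist1h3e and Hist2h3b averaged 65.5, 38.1, 37.6 and 25.9 TPM. H1 genes are longer and more distinct in sequence. Hist1h1c averaged 59.9 TPM, Hist1h1e 45.3 TPM, Hist1h1a 31.1 TPM and Hist1h1b 9.96 TPM. Hist1h1t was at 0 in 3 libraries and reached 0.552 TPM at most, which is within the range of 1 to 3 read pairs.

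Members were high or low in the same libraries. Among the 64 tested members, ethanol + stress replicate 2 was the highest of the 12 libraries for 24 and ethanol replicate 2 for 17, while control replicate 3 was the lowest for 17, ethanol replicate 3 for 14 and control replicate 2 for 12. For the 42 members at 10 TPM or more, the coefficient of variation among the 3 mice of a group had a median of 11.3% in stress, below 17.3% for control, 21.7% for ethanol and 21.2% for ethanol + stress. The length annotated past the stem-loop did not separate high from low members. The 22 members ending within 60 bases of the stem-loop had a median level of 21.8 TPM, and the 24 with longer annotation 22.1 TPM. Their median log2 fold changes were 0.13 and 0.12 in ethanol, 0.05 and 0.17 in stress and 0.22 and 0.31 in ethanol + stress.

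Summed TPM of all members overlapped between control and every treated group. The control libraries stood at 3887, 3164 and 2998. Ethanol libraries stood at 3713, 4616 and 3054, stress libraries at 3890, 3324 and 3601, and ethanol + stress libraries at 3295, 4806 and 4294. Control replicate 1 was higher than the other control libraries, and ethanol replicate 2 and ethanol + stress replicates 2 and 3 were the highest of the 12. Control averaged 3350 ± 473, ethanol 3795 ± 784, stress 3605 ± 283 and ethanol + stress 4132 ± 769 (SD, n = 3). Fewer cells of a type and less RNA per cell cannot be told apart in such whole-tissue sums.

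By histone type, the ratio of the ethanol + stress mean to the control mean was similar. It was 1.20 for H1, 1.20 for H2A, 1.22 for H2B, 1.22 for H3 and 1.25 for H4. H4 summed to 2083, 1707 and 1553 TPM in the controls, against 1788, 2633 and 2276 TPM with both exposures. H1 summed to 170, 121 and 122 TPM in the controls, against 145, 171 and 181 TPM. In each type, ethanol + stress replicate 1 lay within the control range or below the highest control value, so the groups overlapped. For ethanol the ratios ran from 1.05 in H1 to 1.16 in H2B. For stress they ran from 1.05 in H4 to 1.19 in H3, again with overlap in every type.

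**Figure D2:**
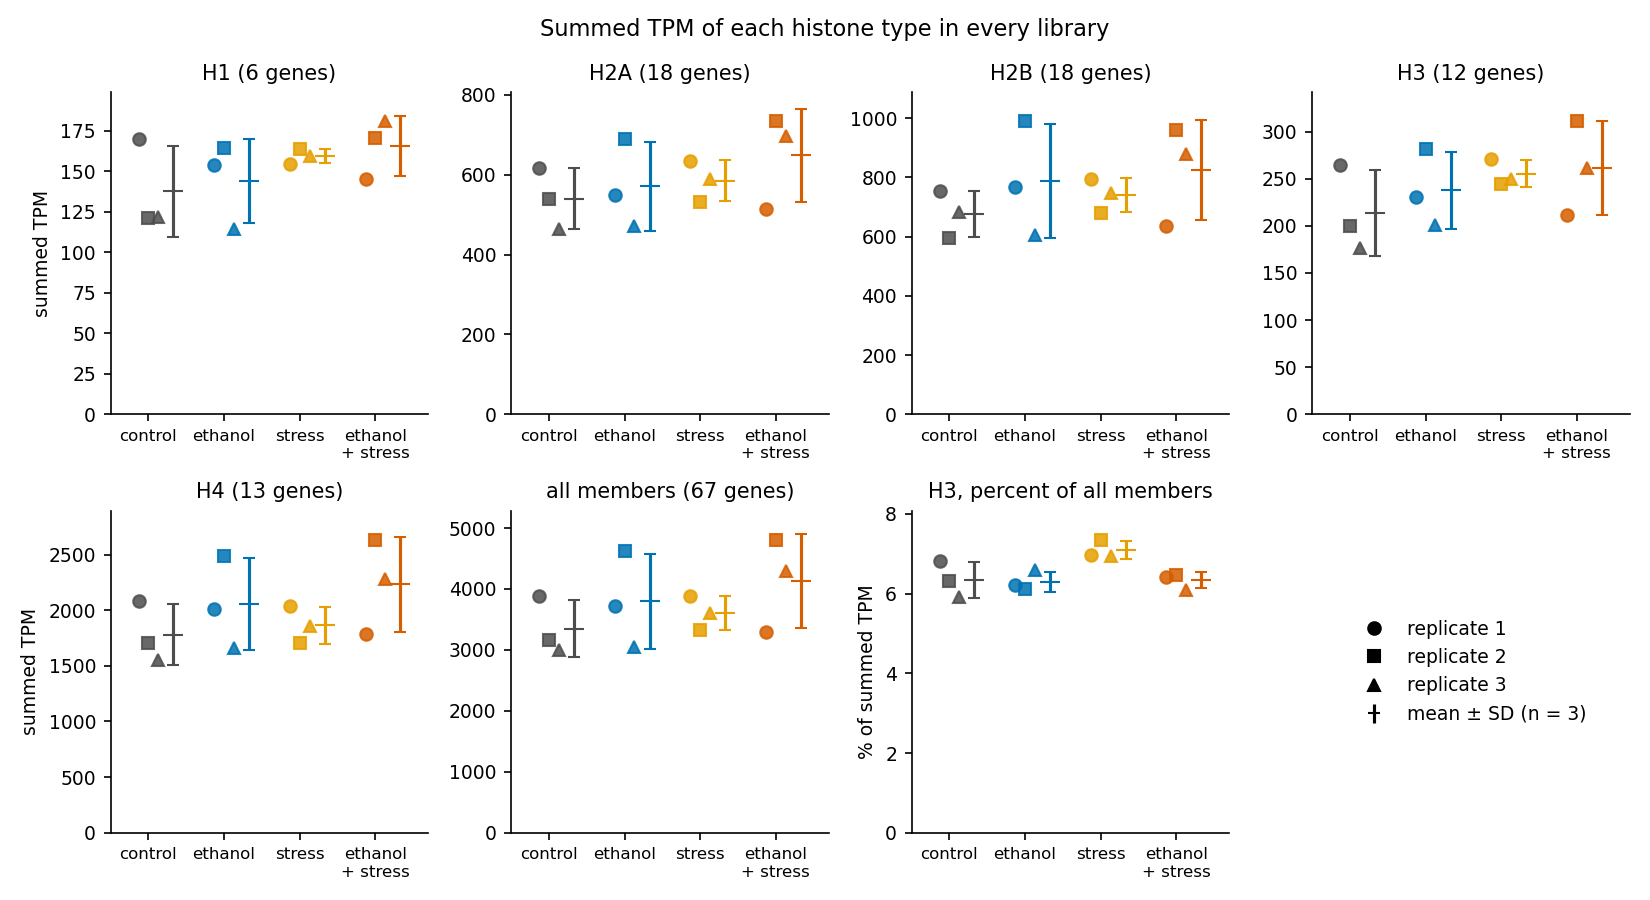
Summed TPM of each histone type and of all 67 members per library, and H3 as a percentage of all members; points are libraries with 1 symbol per replicate number, and bars are the mean ± SD of 3 libraries. Treated and control groups overlap in every panel of sums, while the 3 stress libraries lie above the 9 others in the H3 percentage.

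The balance between types changed little. H3 made up 6.98, 7.35 and 6.94% of the member sum in the stress libraries and 5.90 to 6.81% in the 9 other libraries, so stress did not overlap with the rest. This contrast was picked after the values were seen and has no test. Its size, 7.09 ± 0.23% against 6.35 ± 0.45% in control (SD, n = 3), is under 1 percentage point, and the H3 sums themselves overlapped.

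The first comparison asks whether early ethanol alone went with a difference in adult histone mRNA. No member passed the threshold of an unadjusted p under 0.01 in limma, while 0.678% of the 18434 tested genes did. The study used the same cutoff, but on transcripts tested with sleuth and not on sums per gene. At an unadjusted p under 0.05, 2 members passed against 3.63% of all genes. The median log2 fold change of the 64 members was 0.13, beside 0.02 for all genes, and 49 of 64 lay above 0, among them 13 of 13 H4 genes. Hist1h4j, an H4 gene, had 25.0, 27.0 and 20.9 TPM in ethanol libraries against 19.2, 20.7 and 11.4 TPM in controls. Its log2 fold change was 0.53 ± 0.22 (SE), with an unadjusted p of 0.030 and a Benjamini-Hochberg adjusted p of 0.997 in limma. The ethanol and control groups did not overlap for Hist1h4j and for Hist1h2ab, an H2A gene, both higher, and 5.06% of all genes were higher in this way. No member lay wholly below control, where 3.19% of all genes did. Hist1h2ab was at 20.4, 36.6 and 18.2 TPM in ethanol and 17.2, 17.5 and 14.1 TPM in control, a log2 fold change of 0.54 ± 0.25 (SE). Hist1h4i was next by p, with a log2 fold change of 0.31 and overlapping groups. Leaving out 1 library gave 0.27 to 0.69 for Hist1h4j, lowest without control replicate 3. For Hist1h2ab it gave 0.24 to 0.74 and for Hist1h4i 0.13 to 0.44, both lowest without ethanol replicate 2. With the trend over gene length removed from each library, the median over members was 0.03 with 37 of 64 above 0, and with equal totals it was 0.05 with 43 of 64 above 0. Without ethanol replicate 2 the median over members was −0.02, so its sign rests on 1 library.

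The second comparison asks the same of maternal separation alone. No member passed at an unadjusted p under 0.01 in limma, against 0.51% of all tested genes. A single member, Hist2h3b, passed at 0.05, against 2.4% of all genes. This H3 gene was at 32.3, 33.5 and 30.5 TPM in stress and 31.8, 22.5 and 13.2 TPM in control. Its log2 fold change was 0.59 ± 0.26 (SE), with an unadjusted p of 0.044 and an adjusted p of 0.9998 in limma, and control replicate 1 lay within the stress range. It was 0.26 without control replicate 3 and 0.88, with a call at 0.01, without control replicate 1. The gene has no word of its own. The median over members was 0.13 beside 0.00 for all genes, and 49 of 64 members lay above 0. Leaving out 1 library gave medians of 0.06, without control replicate 3, to 0.21, without control replicate 1. Hist1h3a and Hist1h2ab were next by p. Hist1h3a stood at 18.4, 12.3 and 19.5 TPM in stress against 14.4, 10.3 and 13.3 TPM in control. Hist1h2ab stood at 21.6, 23.0 and 20.3 TPM in stress, above each of its control values. The same was true of Hist1h2bg, and of 3.81% of all genes. Again 0 members lay wholly below control, against 3.39% of all genes.

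The third comparison sets mice with both exposures against control. Here 5 of 64 members passed at an unadjusted p under 0.01 in limma, all of them higher, while 0.971% of all tested genes passed and 0.694% passed as higher. The adjusted p was 0.791 for each of the 5. At 0.05, 11 members passed against 5.37% of all genes, and 10 of these were higher. The median log2 fold change of the members was 0.26 beside 0.02 for all genes, with 56 of 64 above 0. Leaving out 1 library gave medians of 0.20, without control replicate 3, to 0.43, without ethanol + stress replicate 1. By type the medians were 0.28 for H1, 0.20 for H2A, 0.31 for H2B, 0.20 for H3 and 0.32 for H4. All 6 H1 and all 13 H4 genes lay above 0, as did 12 of 16 H2A, 14 of 17 H2B and 11 of 12 H3 genes. Groups did not overlap in 10 members, all higher in ethanol + stress, while 5.63% of all genes were wholly higher and 4.62% wholly lower. Many of these copies share reads and are not independent of each other.

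The members without overlap that missed the threshold were of every core type. Hist1h2bc, the most abundant H2B gene of the large cluster, stood at 109, 144 and 117 TPM in ethanol + stress and 98.7, 93.8 and 86.85 TPM in control. Hist1h2bg stood at 67.7, 92.4 and 83.4 TPM against 62.7, 53.3 and 64.3 TPM. Hist3h2a, the member with the steadiest values, stood at 39.4, 42.8 and 41.7 TPM against 39.3, 36.4 and 37.4 TPM, a margin of less than 1 TPM. The others were Hist1h2bb, Hist2h3c2 and Hist1h4n, which were named after their values were seen. Of the 8 members below 0, Hist1h2bk and Hist1h2ai averaged 19.6 and 51.0 TPM and the other 6 less than 10 TPM. The lowest log2 fold change, −1.38, was that of Hist1h2an, a coding-only H2A entry with a mean of 1.54 TPM and an unadjusted p of 0.040.

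**Figure D3:**
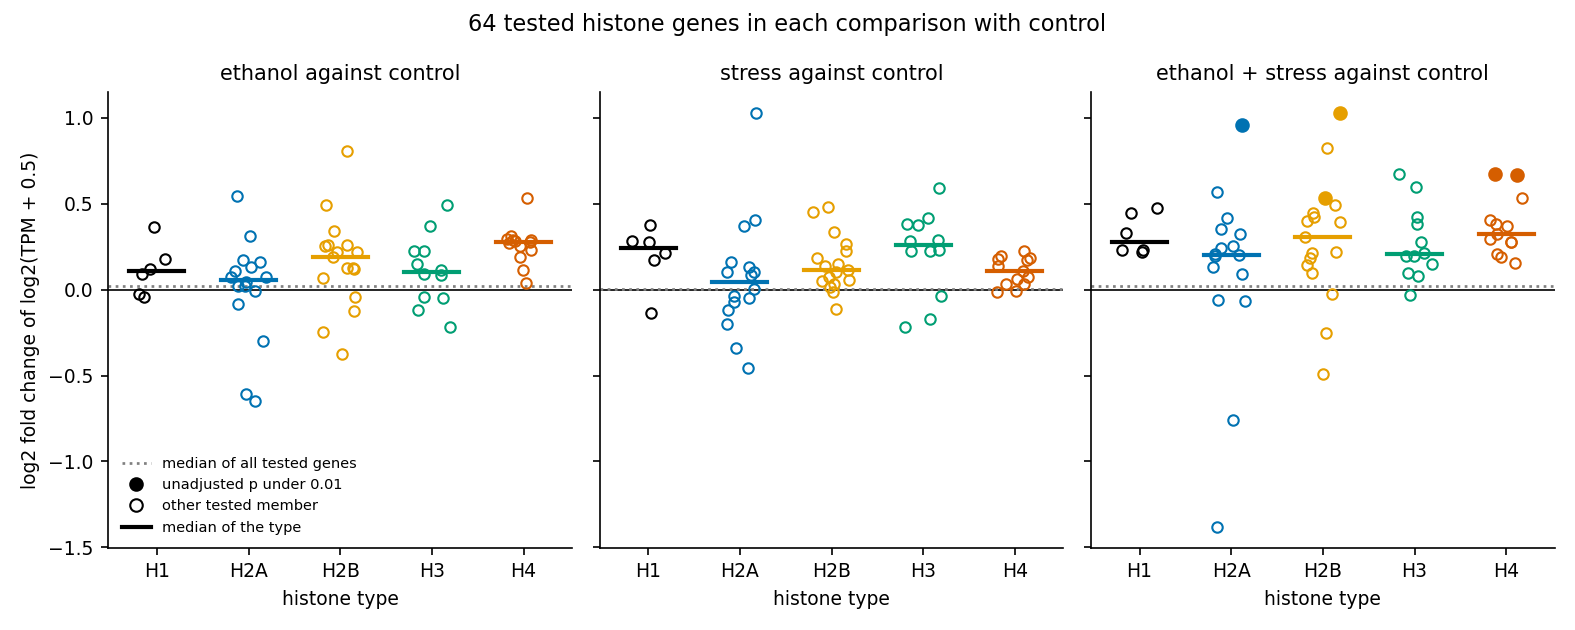
Log2 fold change of log2(TPM + 0.5) for each of the 64 tested members against control, by histone type, in the 3 comparisons; filled points passed an unadjusted p of 0.01, bars are type medians and the dotted line is the median of all tested genes. Filled points occur only in ethanol + stress, 1 in H2A, 2 in H2B and 2 in H4.

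Hist1h4i had the smallest p. This H4 gene lies on chromosome 13 at 22040636 to 22041362 on the minus strand. It stood at 37.0, 48.7 and 40.7 TPM in ethanol + stress and 31.2, 25.1 and 22.8 TPM in control, with 30.1, 42.0 and 27.3 TPM in ethanol and 29.2, 30.5 and 29.4 TPM in stress. All ethanol + stress values were above all control and stress values, and ethanol replicate 2 reached their range. The log2 fold change was 0.67 ± 0.16 (SE), with an unadjusted p of 0.0016 and an adjusted p of 0.791 in limma.

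Hist1h4j, at 21735064 to 21735837 on chromosome 13, stood at 21.6, 29.5 and 30.0 TPM in ethanol + stress, just above its highest control value of 20.7 TPM. Its log2 fold change was 0.67 ± 0.22 (SE), with an unadjusted p of 0.0089, and it was 0.41 without control replicate 3. Both H4 genes carry the stem-loops shown above, and their transcripts are annotated 330 and 385 bases past it. They were represented by 95.6 to 227 and 52.0 to 149 read pairs per library.

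Hist1h2ab, an H2A gene at 23751126 to 23751598 on chromosome 13, stood at 30.2, 43.9 and 24.7 TPM in ethanol + stress. Its control values, 14.1 to 17.5 TPM, lay below every value of the treated groups. The log2 fold change was 0.96 ± 0.25 (SE), with an unadjusted p of 0.0023. With 37.0% unique words, it shares most of its sequence with other H2A genes.

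The other calls were H2B genes. Hist1h2be stood at 17.6, 23.5 and 19.2 TPM in ethanol + stress and 16.5, 11.95 and 12.8 TPM in control, a log2 fold change of 0.53 ± 0.17 (SE) and an unadjusted p of 0.0078. Hist1h2bl stood at 7.59, 10.3 and 11.2 TPM in ethanol + stress and 3.40, 3.20 and 7.83 TPM in control. Its log2 fold change of 1.03 ± 0.30 (SE) had an unadjusted p of 0.0054, but the groups overlapped. It rests on 4.33 to 16.3 read pairs per library, 11.4% of its words are unique, and its divergent neighbour Hist1h2ai had a log2 fold change of −0.06.

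**Figure D4:**
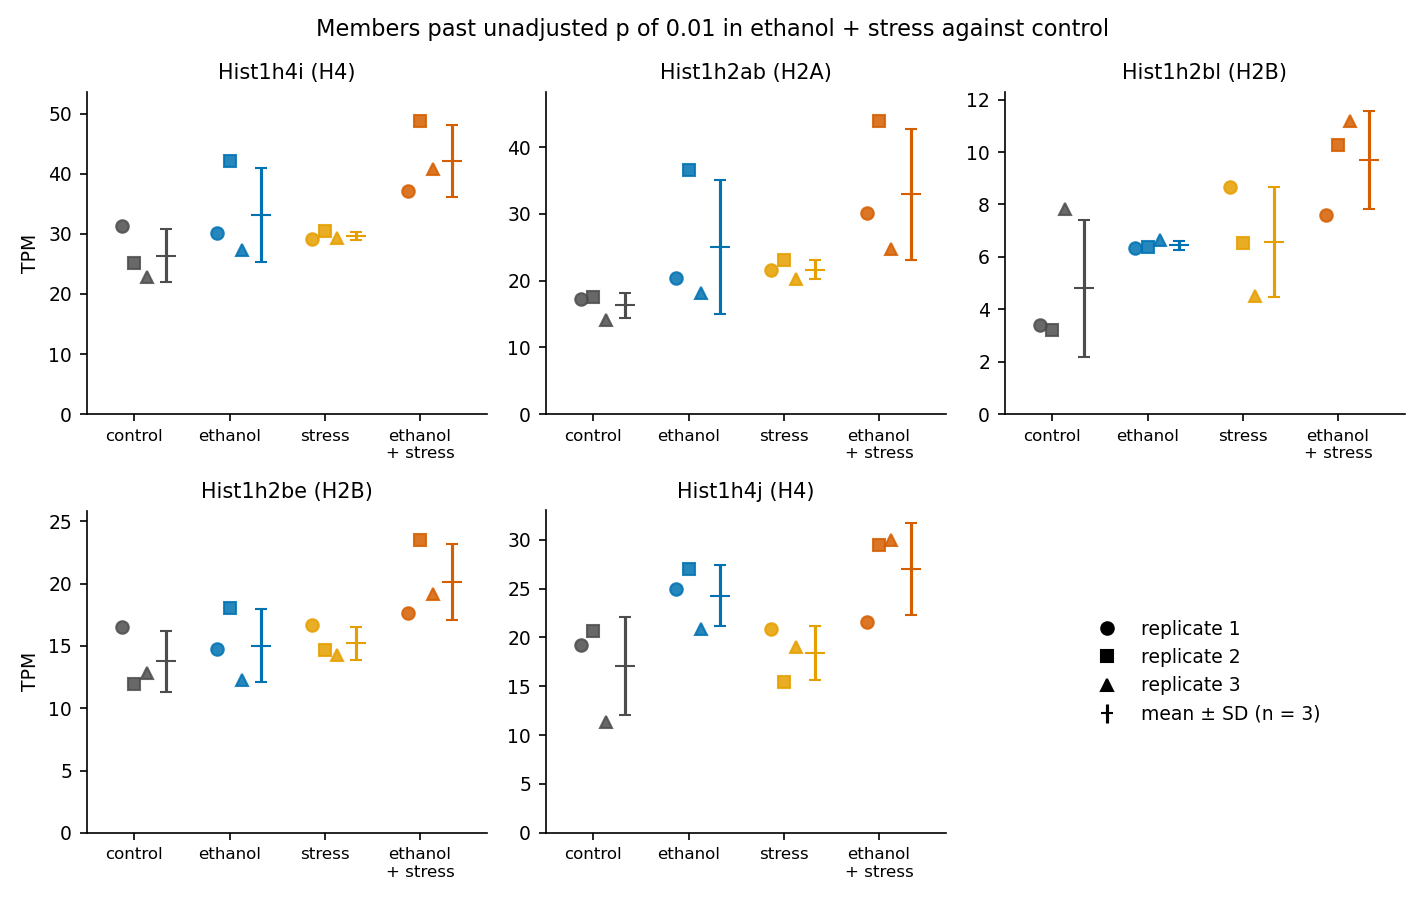
TPM in every library of the 5 members past an unadjusted p of 0.01 in ethanol + stress against control; points are libraries with 1 symbol per replicate number and bars the mean ± SD of 3. In all but Hist1h2bl the 3 ethanol + stress values lie above the 3 control values, and ethanol replicate 2 is the highest ethanol library in all but Hist1h2bl.

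Single libraries decided most of these calls. Hist1h4i was called whichever of the 6 libraries was left out. Hist1h2ab was not called without control replicate 3 or ethanol + stress replicate 2, nor Hist1h4j without either of these or ethanol + stress replicate 3. Hist1h2be was not called without control replicate 2 or 3 or ethanol + stress replicate 2 or 3. Hist1h2bl was not called without control replicate 1 or 2 or ethanol + stress replicate 2 or 3.

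No call was made when members that shared words, grouped as above, were added up before the fit. These sums consist mostly of members that were not called. Among controls, Hist1h4i and Hist1h4j averaged 26.4 and 17.1 TPM in a sum of 1073 TPM. Hist1h2ab averaged 16.3 TPM in a sum of 167 TPM, and Hist1h2be and Hist1h2bl 13.8 and 4.81 TPM in a sum of 320 TPM. A difference in a called gene alone would move such a sum little, so the sums do not test the single calls. Of 23 features tested, summed or alone, 0 passed at an unadjusted p under 0.01 in limma, and 2 passed at 0.05. In the fit without sums, 0.971% and 5.37% of all genes passed. All 23 had a log2 fold change above 0. The sum of 7 H4 genes that includes Hist1h4i and Hist1h4j averaged 1073 ± 173 TPM among controls and 1311 ± 251 TPM after ethanol + stress (SD, n = 3), a log2 fold change of 0.28 with an unadjusted p of 0.17. The sum of 12 H2A genes with Hist1h2ab had a log2 fold change of 0.21 with an unadjusted p of 0.27. The sum of 14 H2B genes with Hist1h2be and Hist1h2bl had a log2 fold change of 0.36 with an unadjusted p of 0.078. The smallest p in this fit, 0.035, was that of Hist1h4m added to Hist1h4n, at a log2 fold change of 0.44.

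A property of the libraries moved with the histone values. Most members are short, with a median annotated length of 539 bases. In each library the deviation of every gene from its own mean was taken, and the median over 971 other genes under 700 bases ranged from −0.16 to 0.33 on the log2 scale. It was highest in ethanol replicate 2, ethanol + stress replicate 3 and ethanol + stress replicate 2, at 0.33, 0.27 and 0.23. The median over the 64 histone genes was highest in the same libraries, at 0.34, 0.24 and 0.38. Over 9502 genes longer than 3000 bases it stayed between −0.05 and 0.05. These 3 libraries also had the largest sums of deposited values, 1173650, 1130570 and 1126490, where the other 9 summed to between 889222 and 1024270. Per 1000000 of that sum, the members took 3482 ± 403 in control mice and 3880 ± 352 after ethanol + stress, with 3687 ± 249 for ethanol and 3702 ± 88.0 for stress (SD, n = 3).

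**Figure D5:**
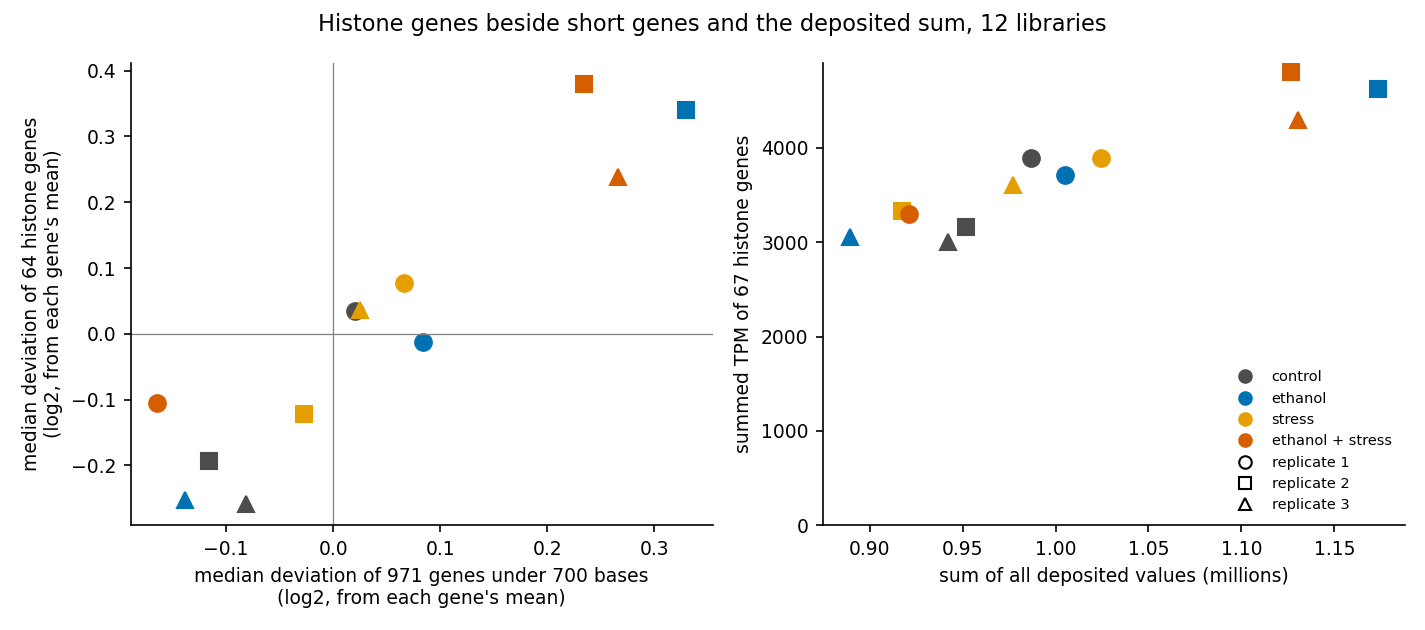
Left, median log2 deviation of the 64 tested histone genes against that of 971 other genes under 700 bases; right, summed TPM of the 67 members against the sum of all deposited values; each point is 1 library, coloured by group with 1 symbol per replicate number. Ethanol replicate 2 and ethanol + stress replicates 2 and 3 are at the upper right of both plots.

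With the trend over gene length removed from each library, the ethanol + stress median over members was 0.11 beside 0.00 for all genes, and 4 of the 5 calls were kept, all but Hist1h2bl. With every library set to the same total, the median of all genes moved from 0.02 to −0.09, the members' median was 0.14, or 0.23 above that of all genes, and Hist1h2ab and Hist1h4i remained called. Without the 3 libraries of largest sum, which leaves ethanol + stress replicate 1 alone in its group, the members' median was 0.01 with 33 of 64 above 0, and Hist1h2ab alone was called. The lone library is then assumed to vary like the other groups. The balance of calls over all genes moved with these settings too. Of 179 genes called in ethanol + stress 128 were higher, against 54 of 118 with equal totals and 108 of 188 with the length trend removed. In ethanol 95 of 125 were higher, against 68 of 114 and 67 of 123. The part of library composition in the histone result was otherwise not tested.

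The interaction of ethanol and stress asks whether the joint exposure differed from the sum of both. No member passed at an unadjusted p under 0.01 in limma, and none at 0.05, where 0.461% and 2.69% of all genes passed. The median over members was 0.01, with 36 of 64 above 0. The members with the smallest p were Hist2h3c1, Hist1h2ag and Hist1h3d. Hist1h2ag, for which ethanol replicate 3 stood at 0.763 TPM and the other libraries at 3.82 to 8.19 TPM, shows how far 1 low library carries a single gene. The 3 comparisons with control share the same control mice, so their values for a member are not independent.

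Genes that make, process or replace these histones were read from the same fit. Of 11 genes listed as replication-independent variants, most are known to have ordinary poly(A) mRNAs, while H2afx was among the other genes with a stem-loop. Of the 11, 0 passed at an unadjusted p under 0.01 in limma in any comparison, and 0 at 0.05. The most abundant, H3f3a and H2afz, averaged 463 and 289 TPM, and their log2 fold changes in ethanol + stress were 0.31 and 0.19, with unadjusted p of 0.16 and 0.32. H3f3a was at 609 and 552 TPM in ethanol + stress replicates 2 and 3, 631 TPM in ethanol replicate 2 and 351 to 511 TPM elsewhere. The same 3 libraries were thus the highest here as well.

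Of 15 genes for histone gene transcription, 3′ processing and decay of the mRNA, 0 passed in any comparison at 0.01 or at 0.05, and the median log2 fold change in ethanol + stress was −0.07. The most abundant were Srrt, which encodes ARS2, and Sympk, which encodes the scaffold of the processing complex, at 56.1 and 52.3 TPM. Their log2 fold changes in ethanol + stress were 0.02 and −0.07. Of 10 histone chaperones 0 passed at 0.01 in any comparison. At 0.05 the count was 1 for ethanol, 0 for stress, 2 for both exposures and 2 for the interaction. Over all genes the shares at 0.05 were 3.63%, 2.4%, 5.37% and 2.69%. Atrx and Hira were the most abundant of the 10. Atrx, which acts with Daxx in placing H3.3, averaged 94.3 ± 12.01 TPM among controls and 67.4 ± 19.3 TPM after both exposures (SD, n = 3), with an unadjusted p of 0.026. It was lowest in ethanol + stress replicate 2, ethanol replicate 2 and ethanol + stress replicate 3, at 50.7, 62.2 and 63.1 TPM, while ethanol + stress replicate 1, at 88.6 TPM, lay within the control range. Hira differed by −0.02 on the log2 scale.

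Among 19 genes of cycling cells, Mcm7, a subunit of the replicative helicase, was the single call, in ethanol + stress. At 0.05, 2 genes passed in ethanol, where 3.63% of all genes did, 2 in stress against 2.4%, and 3 with both exposures against 5.37%. Mcm7 stood at 15.7, 15.8 and 18.3 TPM with both exposures and 9.94, 11.6 and 13.1 TPM in control. This was a log2 fold change of 0.51 ± 0.15 (SE) with an unadjusted p of 0.0057 and an adjusted p of 0.791 in limma. The higher level was not particular to the joint exposure. Ethanol libraries stood at 15.5, 17.1 and 13.7 TPM, each above every control value. Stress replicates 2 and 3 stood at 16.5 and 16.6 TPM, while stress replicate 1 lay within the control range. Pcna, the most abundant, had a log2 fold change of 0.14. Summed over the list, control libraries ranged from 130 to 136 TPM, ethanol from 120 to 149 TPM, stress from 133 to 145 TPM and ethanol + stress from 133 to 154 TPM. Summed histone TPM was thus many times that of the cycling genes in all libraries.

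Markers of cell types the dissection could hold were counted in the same comparisons. The neuronal, oligodendrocyte, microglial and endothelial lists were detected in every library. Blood genes had the most calls. All 5 of Hba-a1, Hba-a2, Hbb-bs, Hbb-bt and Alas2 passed as higher in ethanol and in ethanol + stress and in stress 0 passed at 0.01 and 3 at 0.05. Summed, they ranged from 1603 to 2022 TPM across controls, with ethanol at 3146 to 6815 TPM, stress at 2593 to 3392 TPM and ethanol + stress at 2454 to 6480 TPM. The 3 highest sums were 6815 TPM in ethanol replicate 2 and 6480 and 3977 TPM in ethanol + stress replicates 2 and 3, the libraries in which the histone genes were highest. No gene of the list was at 0. Choroid plexus genes varied widely, from 38.3 to 7243 TPM in sum, and 0 of 6 passed at 0.01 or 0.05. Iyd among 6 pyramidal cell genes passed at 0.01 in ethanol + stress and Tmem119 among 6 microglial genes in the interaction. At 0.05, 3 microglial genes passed in ethanol + stress and 2 in the interaction, against 5.37% and 2.69% of all genes. All 6 microglial genes had log2 fold changes above 0 in ethanol + stress, with a median of 0.18. No gene passed in the lists for young neurons, dentate granule cells, oligodendrocytes, their precursors, endothelial cells or thalamus, and at 0.05 none of these 6 lists had more than 1 gene in any comparison. Microglial sums ran from 286 to 313 TPM in control and 254 to 349 TPM in ethanol. They ran from 283 to 313 TPM in stress and 297 to 397 TPM in ethanol + stress. Oligodendrocyte sums ran from 4428 to 4803 TPM in control and 2824 to 5354 TPM in ethanol. In stress they ran from 3741 to 5670 TPM and in ethanol + stress from 3675 to 6167 TPM. The part of blood or other cells in the histone values was not tested.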

How the data were processed

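Hippocampal RNA of 12 mice was sequenced as paired-end libraries of rRNA-depleted total RNA with a stranded kit. The submitters' processing notes name CASAVA, kallisto, sleuth and mm10, without versions. The values deposited by the authors are a signal per transcript: kallisto TPM which the authors scaled between libraries, so that columns sum to 889222 to 1173650. The identifiers of 113580 of the 115270 transcripts are in GENCODE vM21, and these were summed per gene, and those unmatched held 0.518 to 0.580% of a library's sum. The test was limma 3.58.1 in R 4.3.3 (empirical Bayes with trend, two-sided) on log2(TPM + 0.5). It covered the 18434 genes that reached 0.1 TPM in 6 or more of the 12 libraries, with the 4 groups in 1 model. Calls used an unadjusted p under 0.01, and Benjamini-Hochberg adjusted p over all tested genes is given beside them. Fold changes on this scale understate those of low genes. Depth was estimated from the step between low values, of which 83.2 to 85.8% lay within 0.1 of whole read pairs. The test was checked on simulated data.

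Members and gene lists were chosen with earlier results of these data known. Named were, per histone type, the 4 members of highest mean, every member called, the 3 of smallest p per comparison, the leading and called genes of the other lists and the members of highest and lowest share of unique words. Sums over members have no test. Alternatives were other pseudocounts, filters, scalings, length correction, transcript choice, variance models, a replicate block, single libraries left out and, chosen after seeing the data, copies added up and the 3 libraries of largest sum left out.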

Additional observations from a re-analysis of the deposited data

How the results depend on the processing

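In ethanol + stress against control, the 5 histone genes called became 2 with a total of 1000000 per library, 3 without the trend in the empirical Bayes step, 2 with only the groups compared in the fit, 0 with copies added up and 1 without the 3 libraries of largest sum. Leaving out 1 library gave 1 to 9, with 1 without ethanol + stress replicate 2, 2 without control replicate 3, 3 without control replicate 2 or ethanol + stress replicate 3, and 9 without ethanol + stress replicate 1. The other counts of 0 became 1 in ethanol without the 3 libraries, 1 in stress with only the groups compared and 1 in stress without the 3 libraries. Leaving out 1 library gave 0 to 1 in ethanol, 0 to 2 in stress and 0 to 1 in the interaction. Without the 3 libraries, the median over members in ethanol + stress was 0.0082, and log2 ratios of summed TPM were 0.075 for H1, −0.071 for H2A, −0.090 for H2B, −0.015 for H3, 0.0056 for H4 and −0.024 for all members. The cause of these moves was not tested.

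Same-numbered libraries correlated at −0.17 to 0.16 in their deviations from group means, and differently numbered libraries of different groups at −0.33 to 0.34. These values gave no sign that replicate numbers pair the mice, but they cannot exclude it. With the replicate number as a block, 1 histone gene was called in ethanol, 0 in stress, 5 in ethanol + stress and 0 in the interaction. The 5 held Hist1h2an, which was lower, in place of Hist1h4j. Of the 5 calls in ethanol + stress, Hist1h4i held in 18 of the 19 alternatives that keep copies apart, Hist1h2ab in 17, Hist1h2be and Hist1h2bl in 11 and Hist1h4j in 10. The 10 members called or of smallest p kept their sign under each of these alternatives, and the other genes named were not followed in this way. Log2 ratios of summed TPM in ethanol were −0.038 for H1 and −0.081 for H2A without ethanol replicate 2, and in stress −0.023 for H4 without control replicate 3. Depth limits the low members, since 8 had 3 read pairs or fewer in at least 1 library.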
